A study of Danio rerio with 8 samples.

Results

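The genes described here are 30 zebrafish genes whose transcripts were at similar levels in normoxic embryos of 2 stages and were lower in gastrula-stage embryos deprived of oxygen. They were chosen by the deposited gastrula and normoxic segmentation values, which are log2 values. A row of the array table with a RefSeq transcript identifier was taken where the higher of the hypoxic gastrula values lay at least 1 below the lower of the normoxic gastrula values, a difference called the gap here, and where the mean normoxic value at the segmentation stage lay within 0.7 of the mean normoxic gastrula value. Of 3055 RefSeq rows among 37157 rows in all, 35 met these conditions, and 5 were then left out by their symbols. The remaining 30 rows carry 30 different gene symbols, and none of these genes had another RefSeq row.

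Whole wildtype zebrafish (Danio rerio) embryos were compared as 2 hypoxic and 2 normoxic gastrula samples (shield stage, 6 h) and as 1 hypoxic and 2 normoxic segmentation samples (8 somites, 12 h). Hypoxic embryos spent 1 to 2 h in water brought with nitrogen to less than 1% oxygen, all embryos were raised at the same temperature, and a sample pooled 12 to 15 embryos. The study's design calls the samples of a group biological replicates. RNA came from whole embryos, so fewer cells of a type and less RNA per cell cannot be told apart. The values of the hypoxic segmentation group rest on 1 array, since the column of its other sample holds 0 values. Each group's replicate arrays carried different dyes.

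Embryos deprived of oxygen early in development slow or halt their divisions and their growth, and they can resume when oxygen returns. Making ribosomes and copying DNA are among the costly activities of a growing embryo. Whether energy use bears on the genes below was not tested. In zebrafish the first hours rely on transcripts laid down by the mother, and an mRNA level at the shield stage reflects both what remains of that supply and what the embryo has transcribed.

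Array medians lay between 8.51 and 8.74, but the spread of values did not match: the interquartile range was 2.31 and 2.18 on the hypoxic gastrula arrays against 2.75 and 2.86 on the normoxic ones, and 2.51 on the hypoxic segmentation array against 2.78 and 3.02 on the normoxic ones. Bright rows as a whole lay lower on the hypoxic arrays: in bins 7 to 10 of 10 equal bins of rows by mean normoxic level, the median difference was -0.27, -0.54, -0.61 and -0.29 at gastrula. All 30 genes are bright, with 3 in bin 7, 8 in bin 8, 16 in bin 9 and 3 in bin 10. How far the narrower spread of the hypoxic arrays enters the differences below was not tested. Single-gene values below are as deposited, and values after quantile normalization are given for the set. As a check of the stage labels, 5 of 5 measured somite genes were higher and 5 of 5 measured early embryonic genes lower at segmentation than at gastrula in normoxia.

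In hypoxic gastrulae the median over the 30 genes was 10.03 and 9.69 on replicates 1 and 2, against 11.31 and 11.70 in normoxic gastrulae. At segmentation it was 10.41 on the hypoxic array, against 11.30 and 11.73 on the normoxic ones. The gastrula difference of means ran from -2.50 (rpf1) to -1.22 (psph) on the log2 scale with a median of -1.63, a 3.10-fold lower level. These gastrula values chose the genes and carry no test. Of all 37157 rows, 1.44% met the same value conditions, and the share was 4.9% in level bin 8 and 5.46% in bin 9. Just inside the gap threshold lay csk (-1.0427), ltv1 (-1.0422) and eif4e2 (-1.03), and just outside it lay stip1 (-0.979), srm (-0.975) and tktb (-0.959). The set depends on few arrays: it held 107 rows without gastrula hypoxia replicate 1 and 70 without gastrula normoxia replicate 1. Leaving out a gastrula array makes the gap condition easier to meet, so such rises were in part fixed in advance. After quantile normalization of the deposited values, 10 of the 30 still had a gap of 1 or more. The median gastrula difference was then -1.33, with a range from -2.09 (rpf1) to -0.73 (psph). In rows of similar level the weighted average of the bin medians was -0.17.

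**Figure D1:**
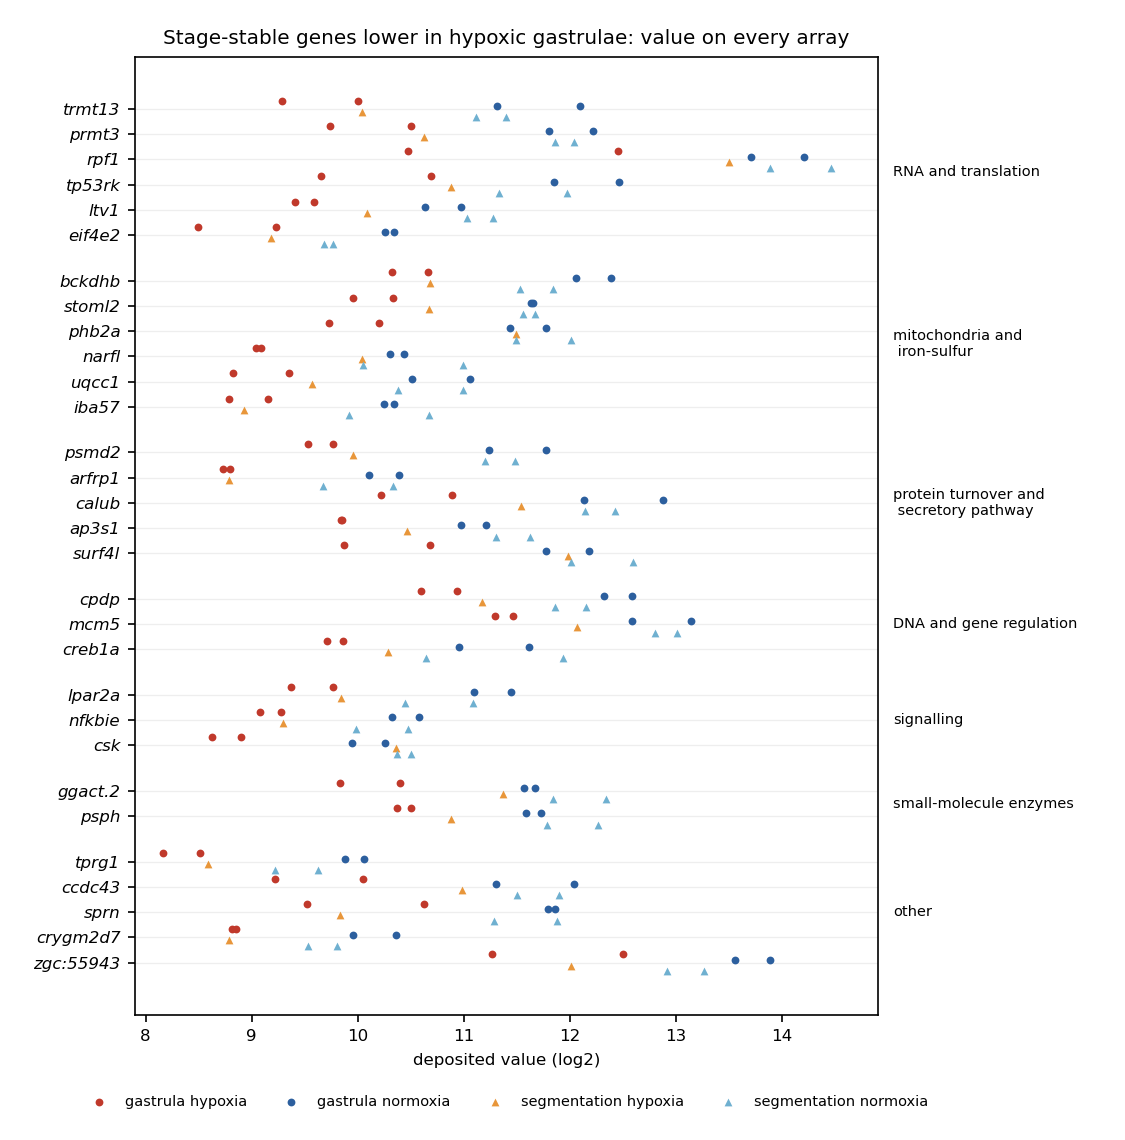
Deposited log2 value (x axis) of each of the 30 genes (y axis, grouped by role) on every array; circles are gastrula and triangles segmentation samples, and each point is 1 array. Both hypoxic gastrula points lie at least 1 to the left of both normoxic gastrula points, which is how the genes were chosen, and the hypoxic segmentation point lies to the left of both normoxic segmentation points in 29 genes.

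By roles assigned by hand, 6 genes work on RNA or on the protein synthesis machinery. The tRNA methyltransferase gene trmt13 (NM_001014309) was at 9.9988 and 9.29 in hypoxic gastrulae, against 11.32 and 12.10 in normoxic ones. On the segmentation arrays it was at 10.04 in hypoxia, against 11.11 and 11.40 in normoxia. The hypoxic gastrula replicates lay apart, and the hypoxic segmentation value was next to the higher of them. It also lay below both normoxic segmentation values, as in 63.8% of rows in its level bin (bin 9) and 38.4% of all rows. The gene prmt3 (NM_001017655) encodes an arginine methyltransferase that acts on a protein of the small ribosomal subunit. Its values were 10.50 and 9.74 in hypoxic gastrulae, against 11.81 and 12.22 in normoxic ones, and 10.63 in hypoxic segmentation embryos, against 11.86 and 12.04 in normoxic ones. Of relatives by symbol, trmt6, trmt10b, trmt12 and trmt10c differed at gastrula by -0.11, -0.10, -0.17 and 0.67, and prmt7 by 0.21. They were dimmer, with mean normoxic levels from 8.67 (trmt10b) to 9.24 (trmt6), against 11.48 for trmt13 and 11.98 for prmt3.

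Ribosome assembly was represented at both subunits, by rpf1 and ltv1. Transcripts of rpf1 (NM_001002160), whose yeast counterpart helps to build the large subunit, were the brightest of the set and had the largest gastrula difference. Their values were 10.47 and 12.45 in hypoxic gastrulae, against 13.71 and 14.20 in normoxic ones, so the hypoxic replicates lay far apart and replicate 2 was much nearer to the normoxic values. On the hypoxic segmentation array rpf1 was at 13.50, against 13.88 and 14.46 in normoxia. Its dye-adjusted difference there was -0.98 ± 0.78 (SE), and it was -2.19 without segmentation normoxia replicate 1, -0.38 without segmentation normoxia replicate 2 and -0.65 without either hypoxic gastrula array. The gene ltv1 (NM_001002316), which in yeast acts in assembly and export of the small subunit, had 9.59 and 9.41 in hypoxic gastrulae, against 10.63 and 10.98 in normoxic ones. At segmentation ltv1 was at 10.08 in hypoxia, against 11.03 and 11.27 in normoxia, so its replicates were close and its difference was of similar size at both stages. Other ribosome assembly genes, picked by hand and not a full list, did not all differ alike at gastrula. The genes ebna1bp2, nop10 and mrto4 differed by 0.35, 0.23 and -0.01, at mean normoxic levels from 13.23 (mrto4) to 14.34 (nop10). The dimmer nmd3, utp18, nol11 and grwd1 differed by -1.01, -1.08, -1.21 and -1.44. Whether ribosome assembly genes differed as a group was not tested.

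The kinase gene tp53rk (NM_001020550) belongs to the KEOPS complex, which makes a modified base of transfer RNA. It was at 10.69 and 9.65 in hypoxic gastrulae, against 11.85 and 12.47 in normoxic ones, and at 10.88 in hypoxic segmentation embryos, against 11.33 and 11.97. The cap-binding protein gene eif4e2 (NM_001014815) is known in human cells for translation under low oxygen. Its values were 9.23 and 8.49 in hypoxic gastrulae, against 10.26 and 10.34 in normoxic ones. At segmentation they were 9.18 in hypoxia, against 9.68 and 9.76 in normoxia, the narrowest spread between normoxic arrays in this role. Over the 6 genes of this role the gastrula difference had a median of -1.94, and the dye-adjusted segmentation difference ran from -1.23 to -0.42.

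A group of 6 genes serves mitochondria or iron-sulfur proteins. The gene bckdhb (NM_001080653) encodes a subunit of the mitochondrial complex that breaks down branched-chain amino acids. It was at 10.32 and 10.66 in hypoxic gastrulae, against 12.06 and 12.38 in normoxic ones, and at 10.68 in hypoxic segmentation embryos, against 11.53 and 11.84. The membrane scaffold gene stoml2 (NM_201031) was at 10.33 and 9.96 in hypoxic gastrulae, against 11.66 and 11.63 in normoxic ones. It was at 10.67 on the hypoxic segmentation array, against 11.67 and 11.55, and so its normoxic values of both stages lay between 11.55 and 11.67.

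The gene iba57 (NM_001076635) acts in mitochondrial iron-sulfur cluster assembly and had the same mean in normoxia at both stages (difference -0.0001). It was at 9.15 and 8.79 in hypoxic gastrulae, against 10.24 and 10.34 in normoxic ones, and at 8.93 in hypoxic segmentation embryos, against 9.92 and 10.67. Its hypoxic values of both stages overlapped. The gene narfl (NM_001080991) acts in iron-sulfur assembly in the cytosol. It was at 9.04 and 9.09 in hypoxic gastrulae, against 10.31 and 10.44 in normoxic ones. At segmentation its hypoxic value of 10.04 was next to the normoxic value of 10.05 on replicate 1 and below the 10.9962 of replicate 2. Other iron-sulfur genes, isca1, iscua and nubp1, differed at gastrula by -0.30, -0.29 and -0.45. At segmentation these other genes differed by 0.12, 0.20 and -0.55. Their mean normoxic levels were 9.34, 13.15 and 10.96.

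The complex III assembly gene uqcc1 (NM_001076755) differed by -1.70 at gastrula and by -1.02 ± 0.44 (SE) at segmentation. The prohibitin gene phb2a (NM_199681), part of a ring-shaped scaffold of the inner membrane, behaved otherwise at the later stage. It was at 10.20 and 9.73 in hypoxic gastrulae, against 11.44 and 11.77 in normoxic ones. At segmentation the hypoxic array held 11.49, the same deposited value as normoxic replicate 1, against 12.01 on normoxic replicate 2. Identical values on these 2 arrays occurred in 624 of 37157 rows, and ties on other pairs of arrays were not counted.

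Protein turnover and the secretory pathway supplied 5 genes. The proteasome gene psmd2 (NM_200546), a subunit of the regulatory cap, had the largest gap of the set (-1.47). It was at 9.77 and 9.54 in hypoxic gastrulae, against 11.24 and 11.78 in normoxic ones, and at 9.96 in hypoxic segmentation embryos, against 11.20 and 11.48. Of the other proteasome genes with a symbol, psma3, psma6b, psmd4b, psmd13 and psmd14 differed at gastrula by -0.44 (psmd14) to 0.15 (psma6b). None of these 5 met the gap, and at segmentation they differed by -0.37 (psma6b) to -0.12 (psmd4b and psmd13). They were brighter, with mean normoxic levels from 12.81 (psma6b) to 14.17 (psma3) against 11.43 for psmd2. Of them only psmd14 lay inside the stage window.

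The Golgi GTPase gene arfrp1 (NM_001013289) was at 8.80 and 8.73 in hypoxic gastrulae, against 10.11 and 10.39 in normoxic ones, and at 8.78 in hypoxic segmentation embryos, against 9.67 and 10.33. Its hypoxic values of both stages lay between 8.73 and 8.80. The gene ap3s1 (NM_001005964) encodes a small subunit of the AP-3 coat, which sorts cargo to lysosomes. It was at 9.85 on both hypoxic gastrula arrays, against 10.97 and 11.21 in normoxia, and at 10.46 in hypoxic segmentation embryos, against 11.31 and 11.63.

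The calcium-binding protein gene calub (NM_201082), a calumenin of the secretory pathway, was at 10.89 and 10.22 in hypoxic gastrulae, against 12.13 and 12.88 in normoxic ones. At segmentation it was at 11.54 in hypoxia, against 12.15 and 12.42 in normoxia. The gene surf4l (NM_001002470), related to an ER cargo receptor, was at 10.68 and 9.87 in hypoxic gastrulae, against 11.78 and 12.18 in normoxic ones. At segmentation its hypoxic value of 11.99 was almost that of normoxic replicate 1 (12.01) and below replicate 2 (12.59). Its relative surf4 differed by -0.05 at gastrula and was dimmer, with a mean normoxic level of 10.79 against 12.14 for surf4l.

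Among genes of DNA and gene regulation, cpdp (NM_201064), a photolyase that repairs ultraviolet damage with light, was at 10.94 and 10.60 in hypoxic gastrulae, against 12.32 and 12.58 in normoxic ones. It was at 11.18 in hypoxic segmentation embryos, against 11.85 and 12.15. The replication helicase gene mcm5 (NM_178436) was at 11.46 and 11.29 in hypoxic gastrulae, against 12.58 and 13.14 in normoxic ones. At segmentation it was at 12.07, below both normoxic values (12.80 and 13.01). The same held in 57.2% of rows in its level bin (bin 10) and 38.4% of all rows. Another replication gene, mcm10, differed by -1.51 at gastrula and was lower by 0.83 at segmentation than at gastrula in normoxia (stage difference -0.83), and with a gap of -0.95 it met neither the gap nor the stage window. The transcription factor gene creb1a (NM_200909), which mediates responses to cyclic AMP, was at 9.71 and 9.86 in hypoxic gastrulae, against 10.96 and 11.62 in normoxic ones. At segmentation it was at 10.29, against 10.65 and 11.93 in normoxia, where the replicates lay far apart. Its paralog creb1b differed by -0.17 at gastrula and by 0.21 ± 0.25 (SE) at segmentation. The 2 are not of like level: the mean normoxic level was 8.96 for creb1b and 11.29 for creb1a.

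Signalling genes were lpar2a, nfkbie and csk. The lysophosphatidic acid receptor gene lpar2a (NM_001003578) was at 9.37 and 9.77 in hypoxic gastrulae, against 11.09 and 11.44 in normoxic ones, and at 9.84 in hypoxic segmentation embryos, against 10.44 and 11.09. Its relatives lpar1 and lpar6a were also lower at gastrula, by -0.53 and -1.04, and neither met the gap. Their mean normoxic levels were 9.65 and 9.98, against 11.02 for lpar2a. The gene nfkbie (NM_001080089), an inhibitor of NF-kB, differed by -1.27 at gastrula and by -0.93 ± 0.33 (SE) at segmentation. The kinase gene csk (NM_001077599), which holds Src kinases inactive, was at 8.63 and 8.90 in hypoxic gastrulae, against 9.94 and 10.26 in normoxic ones. At segmentation csk was at 10.36 in hypoxia, against 10.37 and 10.51 in normoxia, and its dye-adjusted difference was the smallest of the set, level with those of phb2a and surf4l (all -0.15).

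The serine synthesis gene psph (NM_001033099) was at 10.50 and 10.37 in hypoxic gastrulae, against 11.59 and 11.73 in normoxic ones, and at 10.88 in hypoxic segmentation embryos, against 11.79 and 12.26. It had the smallest gastrula difference (-1.22) and a segmentation difference of nearly the same size (-1.07 ± 0.29, SE). The enzyme gene ggact.2 (NM_001004544), of gamma-glutamylamine breakdown, differed by -1.51 at gastrula and by -0.73 ± 0.39 at segmentation. The prion-related gene sprn (NM_198981) was at 10.62 and 9.52 in hypoxic gastrulae, against 11.79 and 11.86 in normoxic ones. It was at 9.84 in hypoxic segmentation embryos, against 11.29 and 11.88, the lowest segmentation difference of the set.

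The other genes were ccdc43 (NM_200658), tprg1 (NM_001089528), zgc:55943 (NM_213064) and the lens crystallin gene crygm2d7 (NM_001045107), which is measured here before a lens has formed. The values of ccdc43 were 10.05 and 9.22 in hypoxic gastrulae, against 11.30 and 12.04 in normoxic ones, and 10.98 in hypoxic segmentation embryos, against 11.50 and 11.90. Those of tprg1, the dimmest gene of the set, were 8.51 and 8.17 in hypoxic gastrulae, against 9.88 and 10.06 in normoxic ones, and 8.59 in hypoxic segmentation embryos, against 9.22 and 9.62. The genes zgc:55943 and crygm2d7 differed by -1.84 and -1.32 at gastrula and by -0.87 ± 0.51 and -0.91 ± 0.30 (SE) at segmentation.

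The segmentation stage holds a hypoxic array that the choice of genes did not use. Its normoxic arrays were used, but only to bound the stage difference, so the comparison is not wholly independent. Differences at this stage are dye-adjusted differences of group means from a limma fit across all rows, with standard errors (SE) of that fit. The fit takes its dye term and its spread in part from the gastrula arrays that chose the genes. The differences, SE and p-values are therefore not free of that choice. For rpf1 the plain difference was -0.67 and the fitted one -0.98. All 30 genes lay below 0 in deposited values (27 after quantile normalization), with a median of -0.91 (1.88-fold lower) and a range from -1.48 (sprn) to -0.15 (csk). With the segmentation arrays alone and no dye term, the median was -0.93 and all 30 again lay below 0. Of all rows, 51.7% lay below 0. The hypoxic value was below both normoxic values in 29 of the 30, against 38.4% of all rows, and at least 1 below the lower of them in 4 of the 30 (sprn, psmd2, prmt3 and trmt13), against 2.02% of all rows.

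No gene passed after Benjamini-Hochberg adjustment over all rows (0 of 30, against 0% of all rows; limma adjusted p threshold 0.05). At an unadjusted p under 0.05, 12 of the 30 were lower and 0 higher, where 4.62% of all rows were lower. The 6 genes with the smallest p were psmd2 (-1.39 ± 0.35), psph (-1.07 ± 0.29), sprn (-1.48 ± 0.41), ltv1 (-1.05 ± 0.29), ap3s1 (-0.99 ± 0.28) and iba57 (-1.19 ± 0.34; all SE), with limma adjusted p from 0.616 to 0.628. With 1 array against 2, an exact permutation test of a single gene cannot give a one-sided p below 0.333. The hypoxic array was assumed to vary like the arrays of the other groups.

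**Figure D2:**
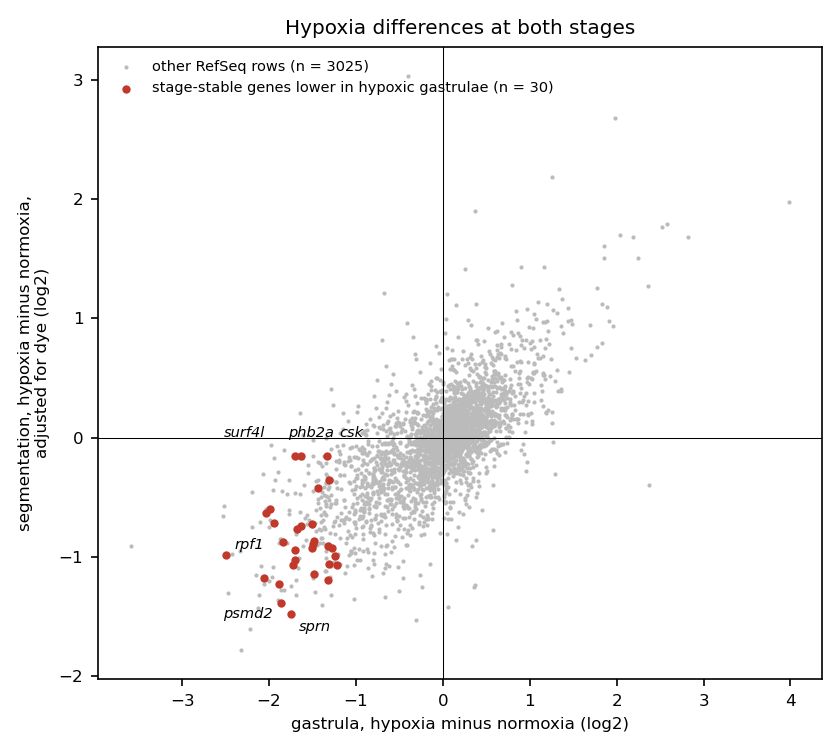
Hypoxia minus normoxia difference at segmentation (y axis, log2, adjusted for dye) against that at gastrula (x axis, log2) for 3055 RefSeq rows; red points are the 30 genes, grey points the other rows. The gastrula axis chose the red points; on the segmentation axis all 30 lie between -1.48 and -0.15 in these deposited values, while 27 lie below 0 after quantile normalization.

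Rows of similar mean level were lower at this stage as well, to a smaller extent. For 14833 other rows in bins 7 to 10, medians and shares were taken per bin and averaged, weighted to the bins of the 30 genes. The averaged median segmentation difference was -0.27, 69.6% of rows lay below 0 and 61.95% had the hypoxic value below both normoxic ones. At an unadjusted p under 0.05, 10.6% of these rows were lower, and 5.38% were lower by at least 1 than the lower normoxic value. The difference between the 30 genes and these rows was not tested. After quantile normalization of the deposited values the median over the 30 genes was -0.72, against -0.05 in rows of similar level, and 27 of the 30 lay below 0. The exceptions were phb2a (0.15), csk (0.13) and surf4l (0.07), so their sign at segmentation turns with the scaling.

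**Figure D3:**
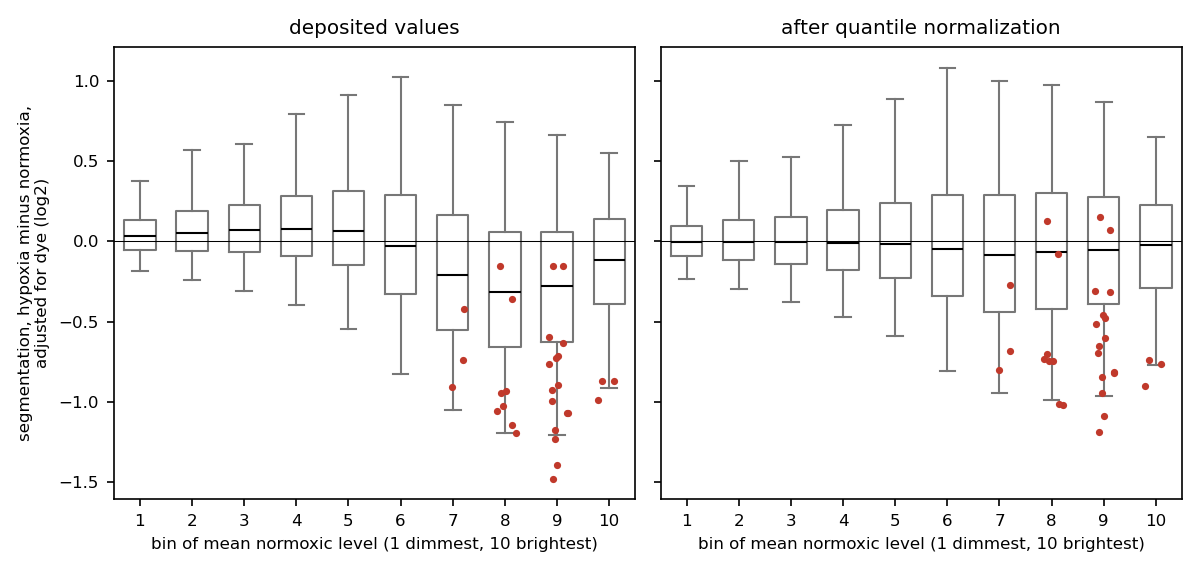
Dye-adjusted hypoxia minus normoxia difference at segmentation (y axis, log2) by bin of mean normoxic level (x axis, bin 1 dimmest), for deposited values on the left and after quantile normalization on the right; boxes give the quartiles of all rows in a bin, whiskers the 5th and 95th percentiles, and red points are the 30 genes. In deposited values the box medians of bins 7 to 10 lie below 0 and 27 of the red points lie below the median of their bin; after quantile normalization the box medians are near 0 and 27 red points lie below 0.

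Sets of rows chosen in like ways had segmentation differences of similar size. The 67 RefSeq rows with the same gap at gastrula but outside the stage window had a median segmentation difference of -0.73, and 97.0% lay below 0. The 499 rows with other identifiers that met the same value conditions had a median of -0.84, and 97.4% lay below 0. Those identifiers could not be matched to genes, so some of the 499 rows may measure the 30 genes again. The 2496 RefSeq rows inside the stage window that did not meet the gap had a median of 0.03. Those rows are not of like level: the median level was 11.55 over the 30 genes and 8.21 over the 2496 rows. After quantile normalization the median segmentation differences were -0.72 over the 30 genes, -0.64 over the 67 rows, -0.61 over the 499 rows and -0.01 over the 2496 rows. The mirror set of 27 stage-stable RefSeq rows that were higher by at least 1 in hypoxic gastrulae had a median of 0.94 in deposited values and after quantile normalization, and 0% lay below 0. Its median level was 8.37, so it is not of like level to the 30 genes either. None of these differences between sets was tested.

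The size of the difference was smaller at segmentation than at gastrula in 29 of the 30 genes, by plain means. This was fixed in part by the choice of genes on the gastrula values, and no test was made. The hypoxic gastrula values were themselves chosen to be low. The largest segmentation minus gastrula differences in hypoxia were those of rpf1 (2.04), surf4l (1.71), csk (1.60), phb2a (1.52), ccdc43 (1.35) and ggact.2 (1.25), while sprn (-0.23), crygm2d7 (-0.05), iba57 (-0.04) and arfrp1 (0.02) were near their hypoxic gastrula mean or below it.

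Within each group that has 2 arrays, most of the 30 genes differed between replicates in the same direction, but by dye the groups went opposite ways. Gastrula normoxia replicate 2 was above replicate 1 in 29 of the 30, against 57.9% of rows of similar level and 52.4% of all rows. Segmentation normoxia replicate 2 was above replicate 1 in 28 of the 30, against 66.1% of rows of similar level. Replicate 2 carried Cy5 at gastrula and Cy3 at segmentation. The higher normoxic array was thus mostly the Cy5 one at gastrula and the Cy3 one at segmentation. The dye term of the fit is shared by all groups and cannot follow both. Gastrula hypoxia replicate 2 was below replicate 1 in 22 of the 30, and 73.1% of rows of similar level showed the same. Each gastrula pair with the same number shares a dye. The Cy5 pair differed more than the Cy3 pair in 27 of the 30 genes, with medians of -1.85 (Cy5) and -1.24 (Cy3), against 69.1% of rows of similar level and 54.8% of all rows. The exceptions were rpf1, which differed by -3.24 in the Cy3 pair and -1.75 in the Cy5 pair, bckdhb and lpar2a. The gastrula values in these counts are those that chose the 30 genes, while the rows set beside them were not so chosen. At segmentation the Cy5 pair alone (hypoxia replicate 1 and normoxia replicate 1) gave a median of -0.74 with 29 of 30 below 0 and phb2a at 0, where 69.6% of rows of similar level and 48.1% of all rows lay below 0.

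**Figure D4:**
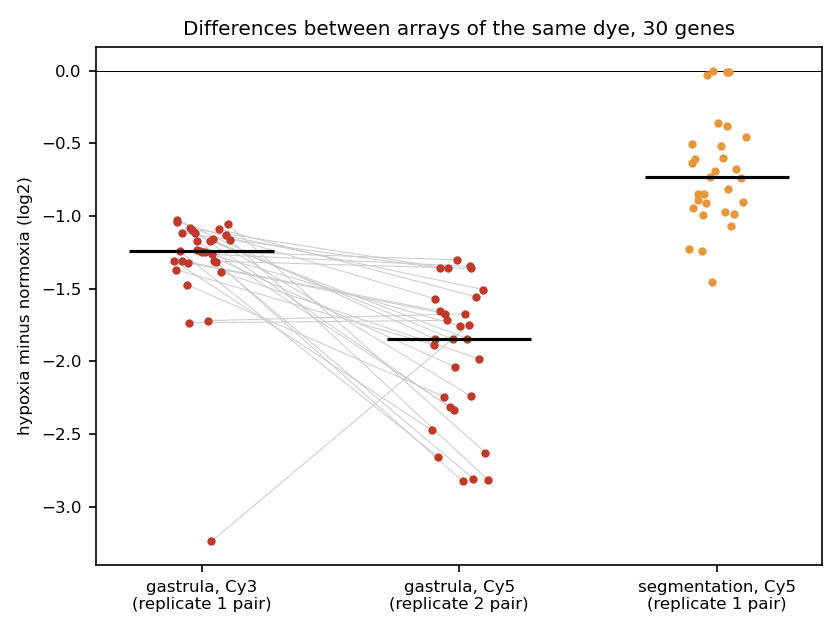
Hypoxia minus normoxia difference (y axis, log2) of each of the 30 genes between arrays of the same dye: the Cy3 and Cy5 gastrula pairs, joined by grey lines, and the Cy5 segmentation pair; black bars are medians. The medians are -1.24, -1.85 and -0.74, and the gastrula pairs were used to choose the genes.

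Gene families were also counted over the 2650 genes with a symbol, from lists of symbol patterns, to see what else of each kind was measured. The gap of 1 or more at gastrula, at any stage difference, was met by 94 of the 2650. It was met by 2 of 42 translation, tRNA and ribosome genes (trmt13 and eif4e2), 3 of 40 mitochondrial genes, 4 of 64 vesicle traffic genes, 2 of 33 cell cycle and replication genes and 5 of 69 metabolic genes. It was met by 1 of 64 proteasome and ubiquitin genes (psmd2), 2 of 24 splicing and RNA-binding genes, 3 of 82 transcription and chromatin genes, 3 of 108 signalling and cytoskeleton genes and 0 of 25 folding chaperones. Symbol patterns miss most of the 30 genes, such as rpf1 and bckdhb. They hold only psmd2, trmt13, eif4e2, phb2a, ap3s1, mcm5, prmt3, creb1a and psph. The mitochondrial pattern holds 1 (phb2a) of the 6 genes given the mitochondrial and iron-sulfur role, and prmt3 is counted with transcription and chromatin. The families are thus not the role groups described above. The gene eif4ea, related to eif4e2, differed by 0.44 at gastrula and was brighter, with a mean normoxic level of 11.75 against 10.01 for eif4e2.

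At segmentation 0 genes of any of these families passed (limma, adjusted over all rows), and the symbol patterns were chosen with results of these data known. At an unadjusted p under 0.05, 3 of 42 translation, tRNA and ribosome genes were lower and 0 higher, and 4 of 40 mitochondrial genes were lower and 0 higher. For vesicle traffic 7 of 64 were lower and 1 higher, for metabolism 5 of 69 lower and 4 higher, and for folding chaperones 2 of 25 lower and 4 higher. Over all 2650 genes with a symbol, 110 were lower and 51 higher. The median segmentation difference was -0.20 in translation, -0.21 in mitochondrial, -0.24 in cell cycle and -0.19 in splicing and RNA-binding genes. It was -0.11 in vesicle traffic, -0.09 in metabolism and -0.08 in proteasome and ubiquitin genes. It was 0.10 in transcription and chromatin genes, 0.03 in folding chaperones and 0.01 in signalling and cytoskeleton genes, against -0.02 over all genes with a symbol. These family medians and counts take no account of level. Over all rows in level bins 7 to 10 the median segmentation difference was -0.21, -0.31, -0.28 and -0.12. After quantile normalization it was -0.09, -0.06, -0.05 and -0.02 in those bins. Families were not compared at equal level.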

How the data were processed

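Per the submitters' processing notes, the deposited values were made with RMA, with no version given. That the deposited values are log2 was inferred from their range (6.85 to 15.96). The array design and scanner are not named in the labels. The deposited arrays differ in the spread of their values, which can shift bright rows on whole arrays. RefSeq identifiers were matched without versions to RefSeq's GRCz12tu genes to obtain symbols, and 2663 of 3055 matched.

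The segmentation contrast was fitted with limma 3.58.1 in R 4.3.3 (4 groups plus dye, 7 arrays, empirical Bayes, two-sided, Benjamini-Hochberg over 37157 rows), with 2 residual and 2.92 prior degrees of freedom. The step was tested on simulated data. The gastrula contrast chose the genes and was not tested. Rows of similar level were taken in 10 equal bins of mean normoxic value, weighted to the bins of the 30 genes. A median given for these rows is the weighted average of the bin medians. Precision is limited by how few arrays there are.

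The genes, lists and tests were chosen with earlier results of these data known. The rule for genes given on every array took the 12 with the largest gap, the 6 with the smallest segmentation p in each direction, and up to 2 from each gene family with 2 or more of the 30; tp53rk, mcm5, csk, phb2a, surf4l and narfl and the relatives of the genes were added after their values were seen. Roles were assigned by hand from gene names. Alternatives were no dye term, replicate blocks, quantile normalization, median centring, filters, other priors and thresholds, and leaving out each array.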

Additional observations from a re-analysis of the deposited data

How the results depend on the processing

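The number of the 30 genes that passed at segmentation was 0 in all settings that were run. Over all rows, 9 passed without the dye term and 0 in the other settings. The median segmentation difference of -0.91 was -0.93 without the dye term, -0.72 after quantile normalization and -0.97 after median centring. With a replicate block across stages it was -0.79 and within stage -0.74. Leaving out 1 array gave -1.24 to -0.74, the lowest without segmentation normoxia replicate 1. The 12 genes with the largest gap kept a negative segmentation difference in all 192 alternative values, from -2.19 to -0.16. Many of these values repeat each other by construction, since filters and priors leave the difference unchanged, and all use the same hypoxic array. The genes phb2a, csk and surf4l, which lay above 0 after quantile normalization, are not among the 12. The number of genes that met the rule, 30, depended on its settings. It was 10 after quantile normalization, 51 after median centring, 18 with a stage window of 0.35, 43 with a window of 1, 158 with a gap threshold of -0.5 and 0 with -1.5. Leaving out 1 array gave 26 (segmentation normoxia replicate 2) to 107 (gastrula hypoxia replicate 1), and 70 without gastrula normoxia replicate 1. The gap condition is easier to meet when a gastrula array is left out. It was 32 when both same-numbered gastrula pairs had to differ by -1 or less. The replicate deviations of hypoxic and normoxic gastrulae correlated at -0.15 over rows, so crossed pairs were added after seeing the data, and then 55 met the rule and 0 passed at segmentation. The numbers do not show that samples were paired. No fit was possible without the hypoxic segmentation array.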
